A study of Mus musculus with 62 samples.

Results

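H3K27me3 was compared between HSPCs that had lost both Daxx and Pu.1 (DKO) and HSPCs that had lost Daxx alone (Daxx-KO), at 8 weeks after injection of pI:pC (8 w.p.i.). The deposited table of this comparison lists 55700 autosomal sites, of 1987591 sites in all tables of the series, and all of them were taken. A site was called higher in DKO when all 3 DKO libraries lay above all 3 Daxx-KO libraries, and lower in DKO in the opposite case. Of the listed sites, 30906 (55.5%) were higher in DKO, 15974 (28.7%) were lower, and at the other 8820 the groups overlapped.

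The study used mice of the C57BL/6 strain in which Mx1Cre, active in blood-forming and some other cells after pI:pC, deletes floxed genes. Both groups carried Daxx F/F and Cre +/-, so Daxx was deleted in the controls too, and the DKO mice also carried Pu.1 F/F, the floxed Spi1 gene. The cells were Lin-/c-Kit+ HSPCs from bone marrow, enriched with magnetic beads, which is a mixture of stem cells and committed progenitors. H3K27me3 was mapped by CUT&Tag, in which an antibody guides the Tn5 transposase to cut and tag DNA at the mark in intact nuclei.

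H3K27me3 is written by the Ezh1 and Ezh2 methyltransferases of Polycomb repressive complex 2 and marks genes that are kept silent, above all CpG-rich promoters of developmental regulators and genes of other lineages. Pu.1, encoded by Spi1, is an ETS-family transcription factor that binds GGAA-core sites, drives myeloid and B-lymphoid genes, and in stem cells helps to set the balance between lineages. Daxx is a chaperone of histone H3.3. A bulk level of a mark mixes cell types, so that a different share of cells carrying the mark and a different amount of the mark per cell cannot be told apart.

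The windows below show the kinds of sequence under the sites at both ends of the comparison. Each is the 300 bp at the centre of a listed site, from the mm10 reference, with every CpG in capitals. C1qb, Ccl2 and Ms4a3 are promoter sites that were higher in DKO, at genes of macrophages, monocyte recruitment and granulocyte-monocyte progenitors.
C1qb (chr4:136887400-136887699, mm10, + strand): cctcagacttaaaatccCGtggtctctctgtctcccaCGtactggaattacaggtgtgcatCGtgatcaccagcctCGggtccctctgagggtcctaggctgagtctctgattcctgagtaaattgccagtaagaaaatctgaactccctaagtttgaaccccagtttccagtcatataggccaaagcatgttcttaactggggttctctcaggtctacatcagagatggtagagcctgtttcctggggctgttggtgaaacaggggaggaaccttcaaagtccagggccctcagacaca
Ccl2 (chr11:82034175-82034474, mm10, + strand): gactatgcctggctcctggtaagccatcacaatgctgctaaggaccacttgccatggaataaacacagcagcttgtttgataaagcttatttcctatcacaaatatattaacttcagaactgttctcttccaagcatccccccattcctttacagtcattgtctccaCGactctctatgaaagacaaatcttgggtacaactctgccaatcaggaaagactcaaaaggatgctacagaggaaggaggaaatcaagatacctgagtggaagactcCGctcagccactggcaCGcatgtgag
Ms4a3 (chr19:11639700-11639999, mm10, + strand): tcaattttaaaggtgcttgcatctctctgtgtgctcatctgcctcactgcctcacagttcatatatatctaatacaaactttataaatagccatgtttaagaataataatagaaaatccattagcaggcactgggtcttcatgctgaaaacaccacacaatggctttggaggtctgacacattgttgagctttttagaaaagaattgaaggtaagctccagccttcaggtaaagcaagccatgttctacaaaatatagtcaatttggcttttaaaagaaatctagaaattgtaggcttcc
Hnrnpa3 and Sec31a are promoter sites that were lower in DKO, at an RNA-binding protein and a subunit of the COPII vesicle coat. Ebf1 is an intronic site that was lower in DKO, in the gene of a B-lineage transcription factor.
Hnrnpa3 (chr2:75658900-75659199, mm10, + strand): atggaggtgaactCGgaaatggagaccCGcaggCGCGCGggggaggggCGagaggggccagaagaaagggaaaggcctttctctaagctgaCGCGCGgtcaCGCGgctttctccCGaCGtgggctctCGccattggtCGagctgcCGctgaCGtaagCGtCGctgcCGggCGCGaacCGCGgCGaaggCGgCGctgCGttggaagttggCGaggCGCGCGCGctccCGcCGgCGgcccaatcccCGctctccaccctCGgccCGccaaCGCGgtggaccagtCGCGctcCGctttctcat
Sec31a (chr5:100416375-100416674, mm10, + strand): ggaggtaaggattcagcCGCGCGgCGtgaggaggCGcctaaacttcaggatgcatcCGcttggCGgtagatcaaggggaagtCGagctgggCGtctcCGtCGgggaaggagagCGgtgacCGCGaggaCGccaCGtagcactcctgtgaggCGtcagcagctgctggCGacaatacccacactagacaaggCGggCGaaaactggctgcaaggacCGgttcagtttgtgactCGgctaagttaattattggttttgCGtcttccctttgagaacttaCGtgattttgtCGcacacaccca
Ebf1 (chr11:44860150-44860449, mm10, + strand): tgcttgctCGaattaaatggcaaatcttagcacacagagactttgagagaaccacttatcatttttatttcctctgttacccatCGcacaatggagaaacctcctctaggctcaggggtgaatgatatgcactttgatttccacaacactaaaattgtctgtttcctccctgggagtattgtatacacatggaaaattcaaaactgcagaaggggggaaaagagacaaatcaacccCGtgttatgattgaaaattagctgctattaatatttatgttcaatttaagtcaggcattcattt
The Hnrnpa3 window held 44 CpG and the Sec31a window 25. The C1qb window held 4, the Ccl2 window 3, the Ms4a3 window 0 and the Ebf1 window 3. None of the windows lay over an annotated exon, and none held the word GAGGAAGT, a form of the Pu.1 motif, on either strand.

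The values below are normalized counts, the reads of a site in a library divided by a constant the authors set for that library. The libraries held a mean of 1.36 to 2.91 reads per window of 600 bp. DKO replicate 2 had the most reads but a constant of 0.340 per mean read, against 0.455 to 0.588 in the other 5 libraries. It gave the highest value at 17792 (57.6%) of the higher sites, and Daxx-KO replicate 1 gave the highest value at 9606 (60.1%) of the lower sites. These 2 libraries carry index numbers above 30 in their file names and the others 20 to 27. What the numbers stand for is not given in the sources used here. Without these libraries 32139 sites were higher and 16609 lower. Leaving out libraries can only keep or add calls, because fewer values then have to lie apart. With each library scaled by its mean reads instead, 26794 sites were higher and 16615 lower, and the median log2 ratio of all listed sites moved from 1.32 to 1.01. Of the higher calls 26288 (85.1%) were kept under this scaling and of the lower calls 15655 (98.0%), and 0 changed direction. A change of direction was not possible here. The constant per mean read was highest in DKO replicate 1 (0.588) and lowest in DKO replicate 2 (0.340). The first therefore stayed above Daxx-KO at higher sites and the second below it at lower sites.

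At the genes that define the cells or that were deleted, few sites were listed. Within 50 kb of Kit and Ptprc there were 0 listed sites. There were 2 near Cd34, where the groups overlapped, and 6 near Flt3, of which 2 were higher and 2 lower. No listed site lay over Spi1 (chr2:91082390-91115756). The 2 sites within 50 kb of Spi1 were both lower in DKO. The one downstream (chr2:91120601-91121300) had 0, 0 and 0 normalized counts in DKO and 16.5, 13.04 and 7.90 in Daxx-KO. The 2 sites within 50 kb of Daxx, which is deleted in both groups, were also lower in DKO, at 7.53, 0 and 0 against 51.1, 8.69 and 14.5 for the one just past the gene end (chr17:33915601-33916450). In the 5 Mb on each side of Spi1, 137 of 192 listed sites (71.4%) were higher and 32 (16.7%) lower. Around Daxx these were 217 of 360 (60.3%) and 80 (22.2%), where all autosomal sites gave 55.5% and 28.7%.

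The higher sites lay mostly away from promoters. Within 1 kb of the TSS of a protein-coding gene lay 4.03% of the higher sites (95% Wilson interval 3.81 to 4.25), 7.51% of the lower sites (7.11 to 7.93) and 5.94% of all listed sites. These intervals cover counting error only. In counts, promoters held 1244 higher and 1200 lower sites, introns 9843 and 5463, other exons 1976 and 973, and sequence outside protein-coding genes 17843 and 8338. Summed over the listed sites of a library, the signal at promoter sites was 0.150, 0.0893 and 0.105 of that at distal sites in DKO and 0.171, 0.161 and 0.151 in Daxx-KO. The groups did not overlap, with means of 0.115 ± 0.0318 (SD, n = 3) and 0.161 ± 0.00986 (SD, n = 3). The same libraries decided which sites were listed, so this ratio is a description.

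The promoter sites that were lower in DKO were richer in CpG than those that were higher. A CpG observed-over-expected ratio of at least 0.6 was found in 351 (29.2%; 95% Wilson interval 26.7 to 31.9) of the lower promoter sites, in 54 (4.34%; 3.34 to 5.62) of the higher ones and in 19.5% of all listed promoter sites. Away from promoters the shares were 0.738% and 0.155%. In each library, the signal summed over CpG-rich promoter sites was divided by that over CpG-poor ones. This ratio was 0.199, 0.161 and 0.125 in DKO and 0.357, 0.290 and 0.240 in Daxx-KO, so that every DKO library lay below every Daxx-KO library. The same libraries decided which sites were listed, and the CpG classes were chosen after the data were seen. This ratio is therefore a description too. The CpG-rich promoter sites that were lower had a median of 6.20 normalized counts in DKO and 30.2 in Daxx-KO. Of these sites, 29.3% (24.8 to 34.3) overlapped a site listed in the H3K27ac comparison of Daxx-KO with WT at 3 w.p.i., against 13.9% (11.7 to 16.4) of the CpG-poor lower promoter sites. For higher promoter sites the shares were 24.1% (14.6 to 36.9) of the CpG-rich and 10.9% (9.28 to 12.8) of the CpG-poor ones. Over all listed promoter sites they were 25.5% and 12.2%, so the difference went with CpG content in both directions. H3K27ac marks active promoters and enhancers, and its libraries were other ones at another time.

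**Figure D1:**
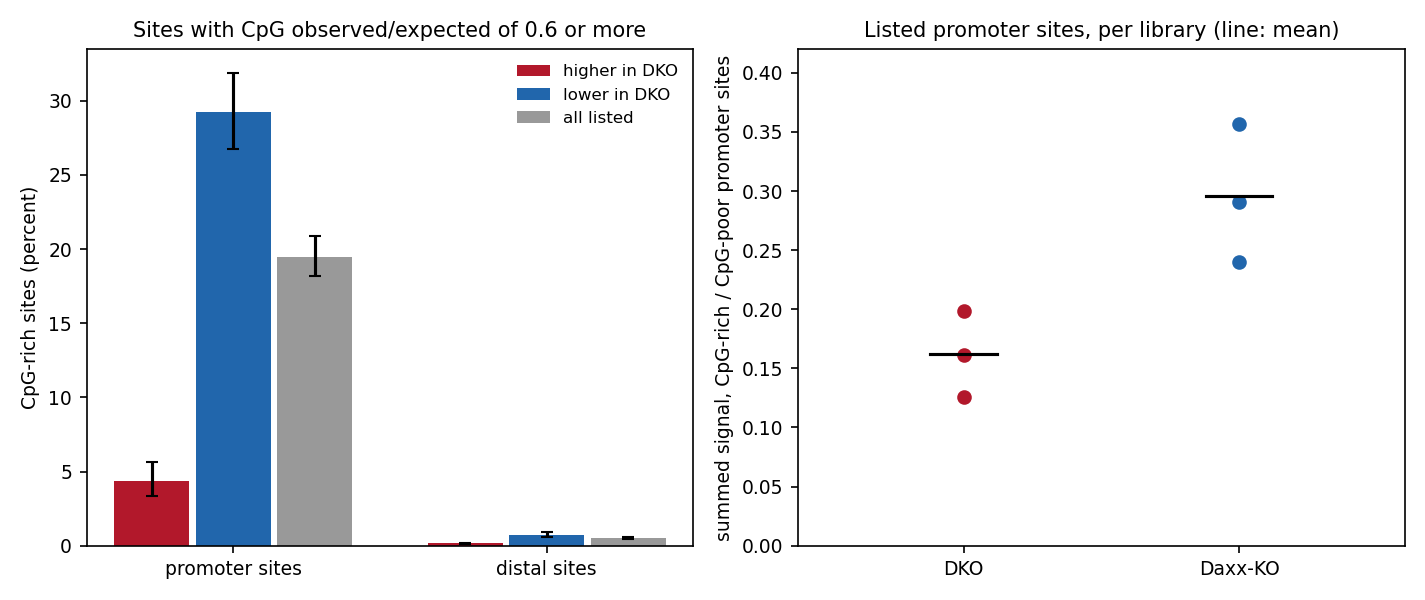
Left, percent of promoter and distal H3K27me3 sites with a CpG observed-over-expected ratio of at least 0.6, for sites higher in DKO, lower in DKO and all listed, with 95% Wilson intervals as error bars. Right, the ratio of summed signal at CpG-rich to CpG-poor listed promoter sites in each library, with the mean as a line: the DKO libraries lie at 0.125 to 0.199 and the Daxx-KO libraries at 0.240 to 0.357. The same libraries decided which sites were listed, so the ratio is a description.

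Of 20780 autosomal protein-coding genes, 1068 (5.14%) had a promoter site that was higher in DKO and 1166 (5.61%) one that was lower, with 30 genes in both sets. The genes with the widest gap between the groups are given first. At the Il31ra promoter, a receptor subunit for interleukin-31, DKO had 20.1, 30.1 and 18.6 normalized counts and Daxx-KO 0, 0 and 0. Against a floor of 3 reads in each Daxx-KO library, this is at least 8.93-fold higher. Enc1, a kelch-domain protein, was also at 0 in every Daxx-KO library, with 10.0, 18.1 and 11.2 in DKO. Siglecg, an inhibitory sialic acid receptor of B cells, had 22.6, 16.1 and 9.93 in DKO against 0, 0 and 0. All 3 promoters thus had no reads in any Daxx-KO library and reads in each DKO library.

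Complement and chemokine genes of the monocyte-macrophage lineage were among the same set. C1qb encodes a chain of complement C1q. Its promoter site, shown above, had 35.2, 46.2 and 43.4 normalized counts in DKO and 1.65, 4.35 and 0 in Daxx-KO, a 20.8-fold difference of the means. The neighbouring C1qa and C1qc share sites with C1qb within 5 kb of each gene, and a site beside C1qa was lower in DKO, at 70.3, 58.3 and 48.4 against 156, 121 and 80.3. Ccl2, the monocyte chemoattractant, had 28.9, 34.2 and 40.9 against 0.820, 4.35 and 2.63, 13.3-fold higher. All 7 listed sites over Ccl2 and its surroundings were higher in DKO. Cd300ld3, of a family of paired immune receptors with near-identical copies, had 22.6, 25.1 and 23.6 against 2.47, 2.17 and 2.63. How reads of its copies were placed is not given in the sources used here. Samd4, Tg, Olfr157 and a pair of genes known by clone names were also among the higher promoters with the widest gaps.

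The promoters with the widest gap downward included those of housekeeping genes. At Hnrnpa3 DKO had 0, 0 and 0 normalized counts and Daxx-KO 21.4, 13.04 and 10.5, at least 4.29-fold lower in DKO. Sec31a had 0, 0 and 0 against 9.88, 15.2 and 13.2. Atp5o, a subunit of the mitochondrial ATP synthase, had 0, 0 and 0 against 21.4, 8.69 and 11.8. These are low levels that are 0 in every DKO library. Ifrd2, a regulator of translation, Taco1, an activator of mitochondrial translation, Marveld2, a tight-junction protein, C1qtnf12 and Zfp112 were likewise at 0 in all DKO libraries. Cabp2, a calcium-binding protein, stood out by level, with 5.02, 0 and 4.96 in DKO against 50.2, 90.2 and 43.4 in Daxx-KO, an 18.4-fold difference. Cds2, an enzyme of phospholipid synthesis, and Defb30 had at most 1.26 in any DKO library.

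**Figure D2:**
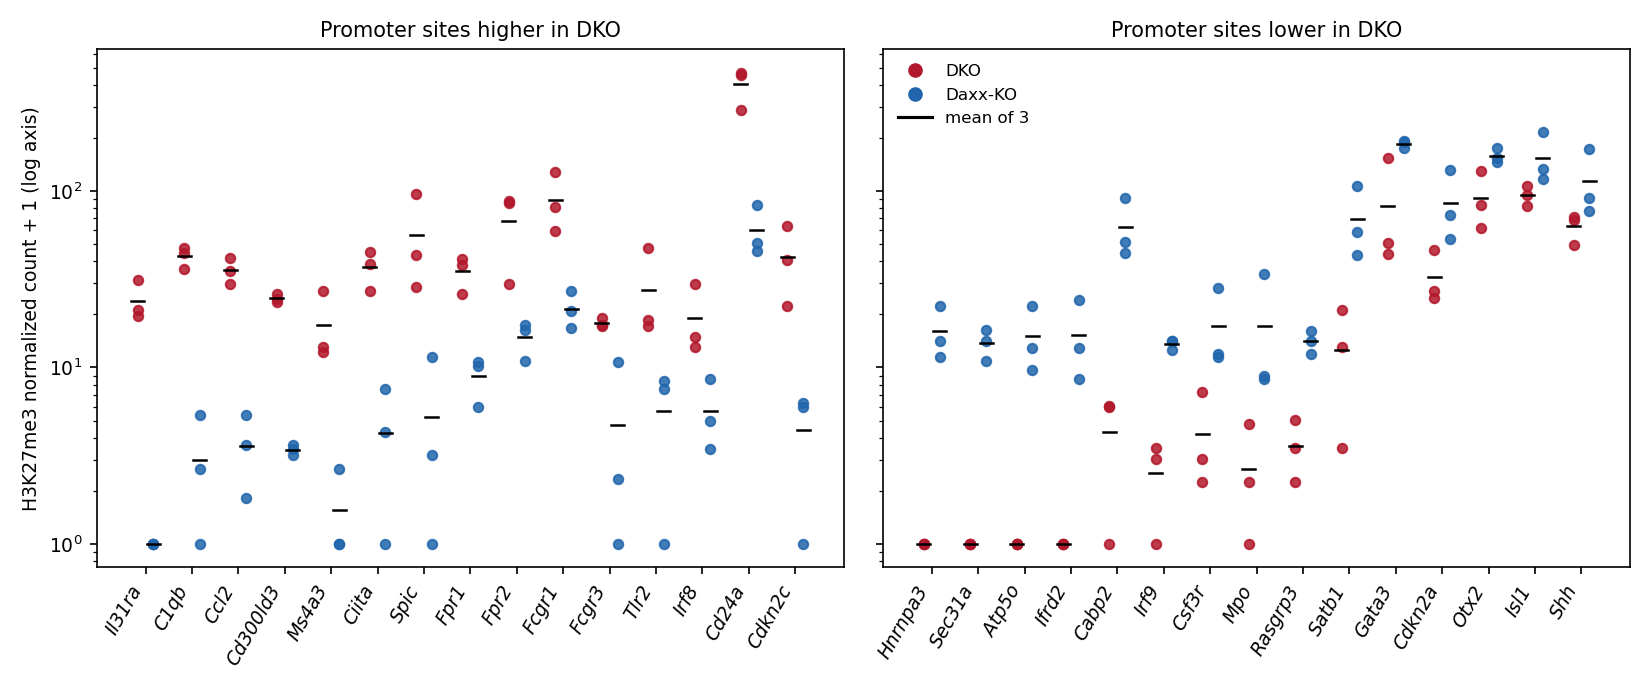
Normalized H3K27me3 count plus 1 on a log axis at promoter sites higher (left) and lower (right) in DKO, with 1 point per library and the mean of 3 as a line. At Il31ra every Daxx-KO library is at 0 and at Hnrnpa3, Sec31a, Atp5o and Ifrd2 every DKO library is, whereas at Shh, Isl1 and Otx2 no library of either group is at 0.

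Genes of the myeloid programme known to depend on Pu.1 were higher in DKO at more promoters than they were lower. Of 52 autosomal genes in this list, 7 (13.5%, against 5.14% of all genes) had a higher promoter site and 2 (3.85%, against 5.61%) a lower one. Counted over the gene and 5 kb on each side, 33 of 50 listed sites were higher and 10 lower, which is 66% and 20% where all gene sites gave 52.7% and 30.2%. In this total and those of the lists below, a site shared by members counts once for each gene. The shares over all gene sites count each site once. The high-affinity IgG receptor Fcgr1 had 80.4, 58.3 and 127 normalized counts at its promoter in DKO and 19.8, 26.1 and 15.8 in Daxx-KO, and all 6 of its listed sites were higher. Spic, the Pu.1-related factor of red-pulp macrophages, had 27.6, 95.5 and 42.2 against 0, 2.17 and 10.5. In both genes the groups were apart by more than the range of the Daxx-KO libraries at the nearest pair.

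The remaining myeloid promoters were closer. Tlr2, a sensor of bacterial lipoproteins, had 17.6, 46.2 and 16.1 against 7.41, 0 and 6.58, and Fcgr3 had 16.3, 18.1 and 16.1 against 0, 9.78 and 1.32. Irf8, a factor of monocytes and dendritic cells, had 13.8, 12.1 and 28.5 against 2.47, 7.61 and 3.95, and Irf5 212, 65.3 and 68.2 against 53.5, 57.6 and 48.7. Irf8 and Irf5 were no longer called when libraries were scaled by their mean reads, which left 5 higher and 2 lower in this list. The lower ones were Csf3r, the G-CSF receptor of neutrophils, with 6.28, 2.01 and 1.24 against 27.2, 10.9 and 10.5, and Emb, a membrane glycoprotein.

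Neutrophil genes gave shares near those of the myeloid list. Of 24, 3 (12.5%, against 5.14% of all genes) had a higher and 1 (4.17%, against 5.61%) a lower promoter site. Of 24 listed sites 17 (70.8%) were higher and 5 (20.8%) lower, where all gene sites gave 52.7% and 30.2%. Sites shared by neighbours were counted once for each gene, so the 24 are not all different sites and the shares are not fully like for like. The neighbouring formyl peptide receptors Fpr1 and Fpr2, which detect bacterial peptides, were both higher, with all 5 and all 6 of their listed sites, some of which they share. Ms4a3 had 11.3, 12.1 and 26.1 against 1.65, 0 and 0 at its promoter, and all 4 of its sites were higher. Mpo, the myeloperoxidase of primary granules, had 3.77, 0 and 1.24 in DKO against 32.95, 7.61 and 7.90 in Daxx-KO, so it was lower.

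B-lineage genes had many listed sites in both directions. At promoters 4 of 34 (11.8%, against 5.14% of all genes) were higher and 2 (5.88%, against 5.61%) lower. Over the genes 75 of 181 listed sites (41.4%) were higher and 85 (47.0%) lower, where all gene sites gave 52.7% and 30.2%. Ciita, the master regulator of MHC class II genes, had 37.7, 44.2 and 26.1 normalized counts at its promoter in DKO and 0, 6.52 and 3.29 in Daxx-KO, and all 7 of its sites were higher. Cd24a, a surface glycoprotein, had 456, 466 and 288 against 49.4, 82.6 and 44.8 over a site of 6850 bp. Mef2c was higher too, with 7.53, 12.1 and 9.93 against 0, 0 and 0.660, and so was Bach2, which was not called under the other scaling. Rasgrp3 and Tcf3 were lower, Rasgrp3 at 2.51, 4.02 and 1.24 against 13.2, 10.9 and 15.1. Outside promoters, Irf4, which acts in plasma cells and other B cells, was higher at 9 of 9 sites and Ikzf3, the lymphoid factor Aiolos, at 17 of 22 with 1 lower. Foxo1 was higher at 9 of 18 sites, but at 4 when libraries were scaled by their mean reads.

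Ebf1, the factor that specifies B cells, went the other way and held 64 of the 85 lower sites of the list. Over Ebf1 (chr11:44617317-45008091) and 5 kb on each side, 64 of 70 listed sites were lower in DKO and 3 higher. Their mean was 10.2, 11.4 and 11.01 normalized counts in the libraries of DKO and 39.8, 27.7 and 35.5 in those of Daxx-KO. That the group means lay apart follows from the calls at most of these sites, and the DKO libraries differed little from each other. The count of lower sites was 65 under the other scaling. It was 64 to 66 when any library was left out, which can only keep or add calls, so it could not fall. At the intronic site shown above (chr11:44859601-44861000) DKO had 0, 0 and 0 and Daxx-KO 29.6, 20.6 and 29.6. In the table of the same DKO libraries against WT, normalized on its own, 46.8% of sites were higher in DKO and 42.5% lower. There, 71 of 77 sites over Ebf1 were lower in DKO, with WT means of 43.7, 50.1 and 35.2 beside DKO means of 12.2, 13.04 and 11.7. Both tables share the DKO libraries, so they are not independent. The called sites drawn beyond either end of Ebf1 in the maps of sites were higher in DKO.

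The antigen receptor loci, looked up after the values were seen, differed from each other. These loci hold the gene segments that lymphocytes rearrange, from the first to the last annotated segment. At the heavy-chain locus Igh (chr12:113254830-116010093), 80 of 110 listed sites were lower in DKO and 14 higher. Their mean was 6.91, 11.9 and 12.9 normalized counts in DKO against 31.8, 20.4 and 23.6 in Daxx-KO. Lower sites also made up 9 of 13 at Igk, 2 of 2 at Igl and 8 of 10 at Trg. All autosomal sites gave 55.5% higher and 28.7% lower. Tra/Trd, with 21 of 39 higher and 11 lower, was near these shares. Many segments are near-identical copies, and how reads of copies were placed is not given in the sources used here.

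**Figure D3:**
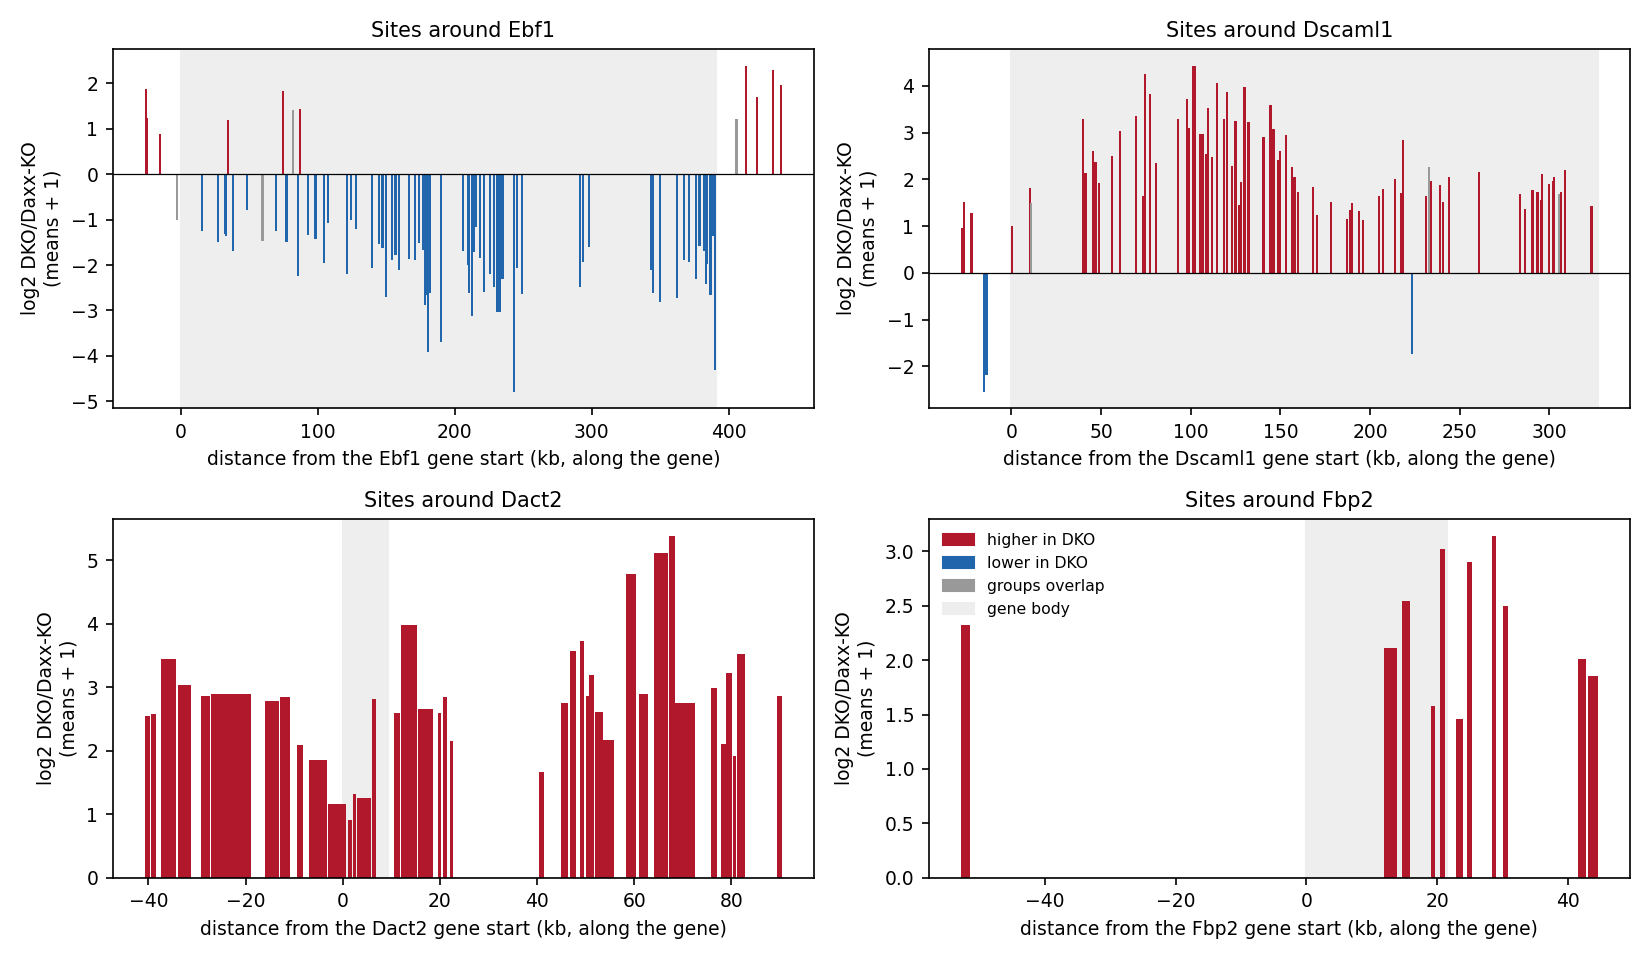
Each bar is a listed site around Ebf1, Dscaml1, Dact2 and Fbp2, placed by its distance from the gene start in kb, and its height is the log2 ratio of DKO to Daxx-KO means plus 1. Of the sites drawn around Ebf1, 64 are lower and 10 higher in DKO, those drawn around Dscaml1 are 74 higher and 3 lower, and all those around Dact2 and Fbp2 are higher.

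In the T and NK list, 1 of 30 genes (3.33%, against 5.14% of all genes) was higher and 2 (6.67%, against 5.61%) were lower at the promoter. Over the genes 20 of 51 listed sites (39.2%) were higher and 26 (51.0%) lower, where all gene sites gave 52.7% and 30.2%. Satb1, a chromatin organizer of thymocytes, had 20.1, 12.1 and 2.48 normalized counts in DKO and 105, 42.4 and 57.2 in Daxx-KO. Gata3, a factor of T cells and innate lymphocytes, had 152, 43.2 and 49.6 against 190, 175 and 189, and DKO replicate 1 was close to the Daxx-KO libraries. Over Cd247, the zeta chain of the T cell receptor complex, all 4 listed sites were lower. The coreceptor genes Cd4 and Cd8a went the other way, with 6 of 7 and 3 of 3 sites higher, as did the T-lineage factor Bcl11b with 5 of 7.

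Of 30 erythroid and megakaryocyte genes 3 (10.0%, against 5.14% of all genes) were higher at the promoter and 0 lower, but 1 and 0 under the other scaling. The 3 were Ank1 and the alpha-globin copies Hba-a1 and Hba-a2, called at different sites, and Hba-a1 alone was called under the other scaling. How reads of such copies were placed is not given in the sources used here. Over Vwf, the von Willebrand factor of platelets and endothelium, 18 of 18 sites were higher, with means of 25.95, 33.4 and 32.3 against 5.76, 7.43 and 5.59. Of 21 mast cell and basophil genes 0 were called in either direction, against 5.14% and 5.61% of all genes. Of 30 stem-cell regulators 4 (13.3%, against 5.14% of all genes) were higher and 1 (3.33%, against 5.61%) lower. Under the other scaling there were 2 and 1. Without DKO replicate 2 there were 6 higher. Tek, the angiopoietin receptor, had 54.0, 72.4 and 47.1 against 24.7, 26.1 and 25.0 and was called under both. Markers of bone-marrow stroma and endothelium, cells that the magnetic enrichment may leave in, were higher at 3 of 17 promoters (17.6%) and lower at 0. All genes gave 5.14% and 5.61%. The higher ones were Adipoq, Col1a1 and Emcn, and Col1a1 was not called under the other scaling. Over the genes of this list 25 of 38 listed sites (65.8%) were higher and 8 (21.1%) lower, where all gene sites gave 52.7% and 30.2%. Cxcl12 was lower at 3 of 3 and Lepr higher at 4 of 4. The part of such cells in the other results was not tested.

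Classical Polycomb targets gave promoter calls near or under the shares over all genes. In the 4 Hox clusters, 1 of 39 genes (2.56%) was higher (Hoxa9) and 1 lower (Hoxb5) at the promoter, against 5.14% and 5.61% of all genes. Neither was called under the other scaling. Without DKO replicate 1 there were 5 lower Hox promoters. Counted per gene, 19 of 93 sites listed over Hox genes (20.4%) were higher and 23 (24.7%) lower, and at 51 the groups overlapped. All gene sites gave 52.7% and 30.2%. Of 82 other developmental regulators 5 (6.10%) were lower and 1 higher, beside 5.61% and 5.14% of all genes. The lower ones were Isl1, Nkx6-1, Nr2f2, Otx2 and Shh, which act in nerve, pancreas, vessel or limb development and are silent in blood. Shh had 70.3, 67.3 and 48.4 normalized counts in DKO and 173, 76.1 and 90.2 in Daxx-KO, so the mark stayed high in both groups. Under the other scaling 6 genes of this list were lower and 0 higher. DKO replicate 1 decided this count: without it 18 developmental regulators were lower, and without Daxx-KO replicate 2 there were 10. Over the genes of this list 44 of 219 listed sites (20.1%) were higher and 74 (33.8%) lower, and at 101 the groups overlapped.

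Among cell-cycle inhibitors the Ink4 genes differed. Cdkn2c, which encodes p18, had 21.4, 62.3 and 39.7 normalized counts at its promoter in DKO and 4.94, 0 and 5.26 in Daxx-KO, and all 6 of its sites were higher. At Cdkn2a, a Polycomb target that encodes p16 and p19, the promoter had 23.9, 45.2 and 26.1 against 130, 52.2 and 71.7. All 3 sites listed over neighbouring Cdkn2b were lower. Of 33 autosomal genes of Polycomb subunits, Phc2 was higher and Pcgf5 lower at the promoter. That is 3.03% in each direction, against 5.14% higher and 5.61% lower of all genes. Of 34 interferon-response and nucleic-acid sensing genes 1 (2.94%, against 5.61%) was lower and 0 (against 5.14%) were higher. The lower one was Irf9, with 2.51, 2.01 and 0 against 11.5, 13.04 and 13.2.

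**Figure D4:**
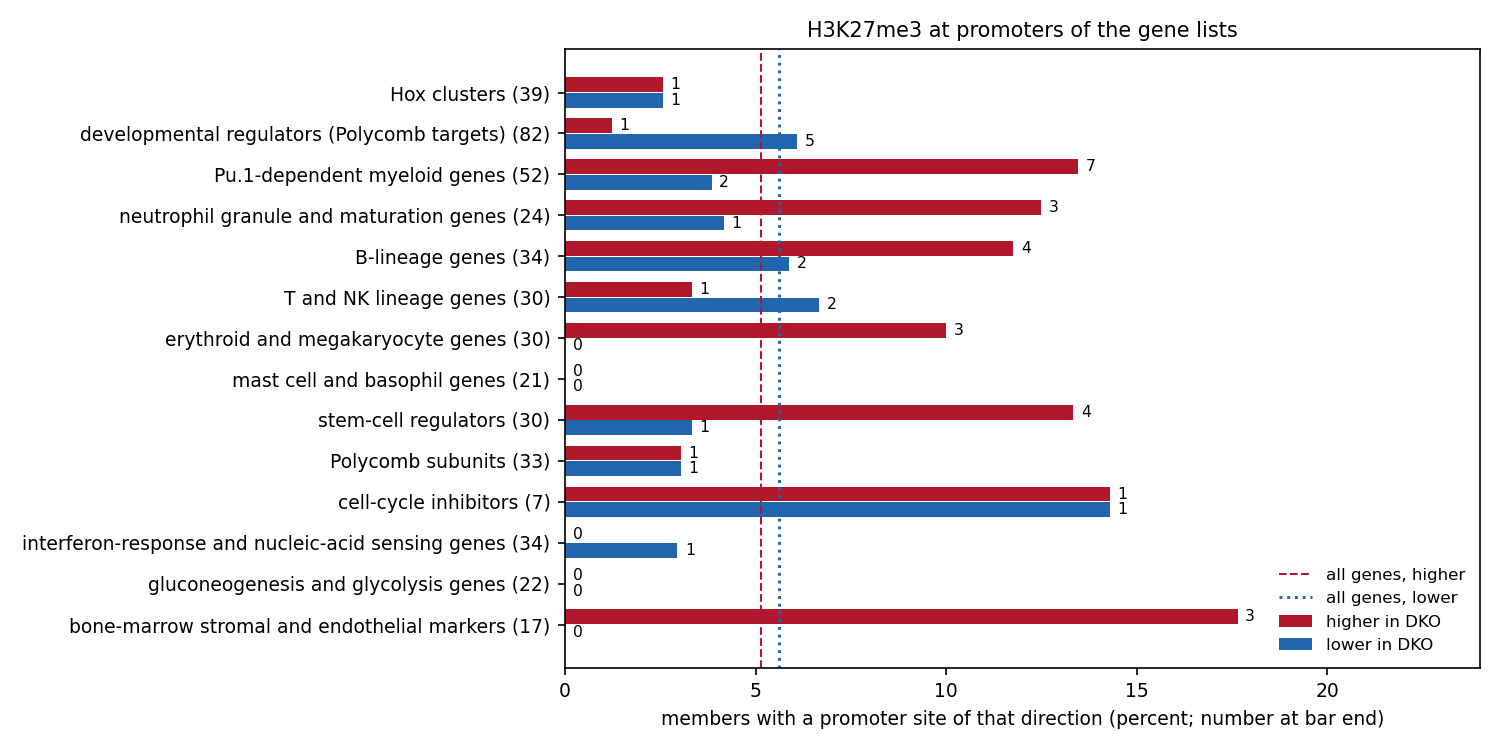
Percent of the autosomal members of each gene list (number of members in brackets) with a promoter site higher or lower in DKO, and the number of such members at the end of each bar. The vertical lines mark the shares over all genes, 5.14% higher and 5.61% lower: the myeloid list reaches 7 of 52 higher, whereas the Hox list has 1 of 39 in each direction.

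Of 22 gluconeogenesis and glycolysis genes 0 were called at promoters, where 5.14% of all genes were higher and 5.61% lower. Outside promoters 12 of 20 sites listed over these genes (60%) were higher and 5 (25%) lower, where all gene sites gave 52.7% and 30.2%. Of the higher ones 7 belonged to Fbp2. Pfkp, a phosphofructokinase of glycolysis, was higher at 3 of 3, and Slc2a1, a glucose transporter, was lower at 2 of 5. Fbp1 and Fbp2 encode fructose-bisphosphatases of gluconeogenesis and lie side by side on chromosome 13. All 12 sites listed within 50 kb of Fbp1 were higher in DKO, and 5 of them lay over Fbp2 and 0 over Fbp1. The mean over the 12 sites was 25.7, 37.0 and 25.95 normalized counts in DKO and 4.33, 7.16 and 6.91 in Daxx-KO. All 12 sites were called by the separation of the libraries, so that these means lie apart follows from the calls. In the comparison of DKO with WT, normalized on its own, 1 site was listed at Fbp1 and 1 at Fbp2. Both were lower in DKO, at 7.92, 6.11 and 3.27 beside 26.2, 24.5 and 8.94 in WT for the one at Fbp1. The paper reports a substantial loss of H3K27me3 over this locus in both Daxx-KO and DKO cells.

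Many changes ran along whole genes, and some of these genes were picked after their values were seen. Of 676 genes with at least 10 listed sites, 85 had at least 90% of them higher in DKO and 28 at least 90% lower. Of all gene sites 52.7% were higher and 30.2% lower. Dscaml1, a neuronal adhesion molecule, was higher at 71 of 75 sites, with means of 26.5, 30.3 and 29.9 against 4.06, 8.93 and 5.68. Cd86, the T cell costimulatory ligand of antigen-presenting cells, was higher at 14 of 14, with 18.1, 30.7 and 39.1 against 2.41, 3.88 and 4.84. Kdr, the VEGF receptor of endothelium, was higher at 9 of 9, and Slc1a2, Crybg1 and Plb1 were higher at 32 of 32, 30 of 32 and 29 of 31 sites.

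Of the genes with lower sites along their length, Yap1 and Wwtr1 encode the paired co-activators of the Hippo pathway. Yap1 was lower at 18 of 18 sites, with means of 33.6, 33.3 and 39.6 in DKO and 91.7, 73.7 and 98.1 in Daxx-KO. Wwtr1 was lower at 34 of 35, with 19.8, 21.3 and 28.4 against 86.0, 50.1 and 70.8. Prkcz, an atypical protein kinase C, was lower at 26 of 26, with 46.3, 20.3 and 48.1 against 146, 163 and 133. Nearly all sites of these genes were called by the separation of the libraries, so that the means of the groups lie apart follows from the calls. Ntm, a neuronal adhesion protein, was lower at 41 of 42 sites, Slc24a3 at 36 of 38, Hpse2 at 26 of 28 and Sytl2 at 24 of 26. March1, a ubiquitin ligase that acts on MHC class II, was lower at 18 of 20.

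**Figure D5:**
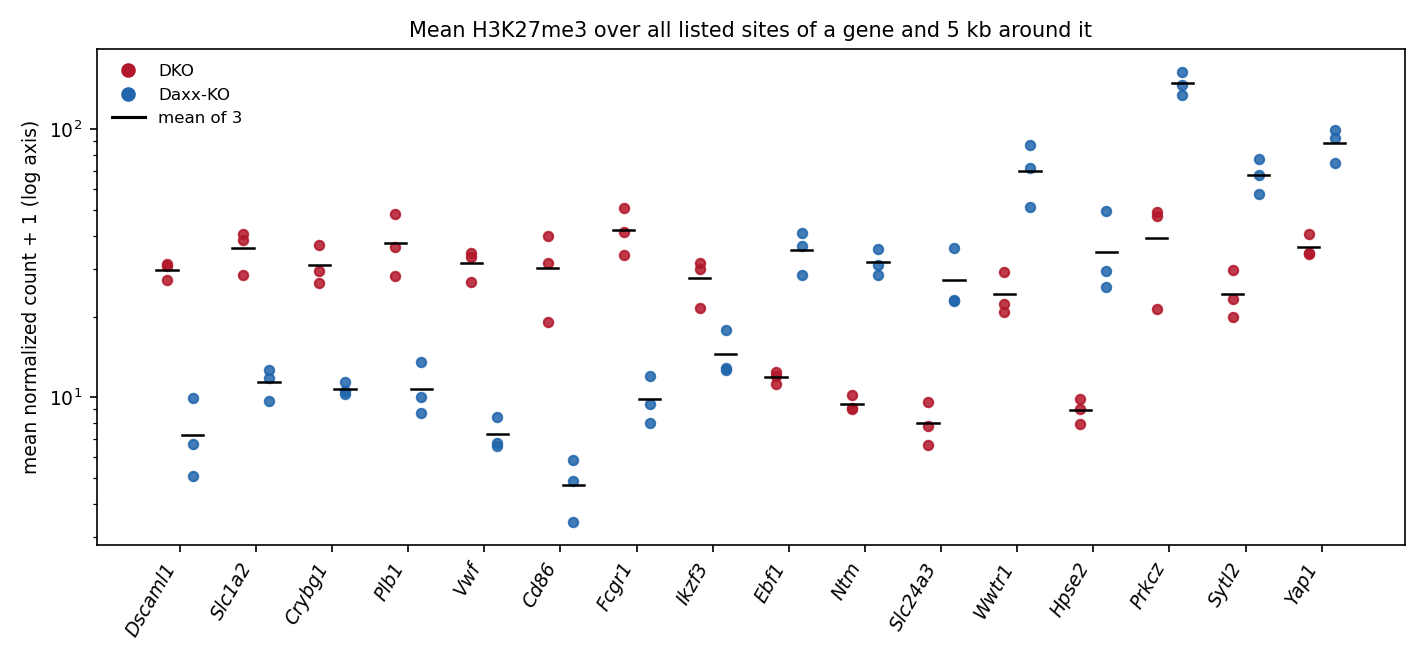
Mean normalized H3K27me3 count plus 1, on a log axis, over all listed sites of a gene and 5 kb on each side, with 1 point per library and the mean of 3 as a line. The genes from Dscaml1 to Ikzf3 have every DKO library above every Daxx-KO library and those from Ebf1 to Yap1 every DKO library below. Most sites of these genes were called by that separation, so the order of the means follows from the calls.

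Sites of one direction that lay within 5 kb of each other, with no opposite site between them, were joined into domains. There were 2393 domains of at least 3 higher sites and 681 of at least 3 lower sites. Such domains held 32.8% of the higher and 17.1% of the lower sites. Higher sites were more numerous, 30906 against 15974, and denser sites are joined more often, so these shares are not like for like. The longest ran for 117 kb over Dact2, an inhibitor of Wnt and TGF-beta signalling, and Smoc2, a matrix protein (chr17:14181501-14298450). It held 41 higher sites of 42 listed, with 92.1 ± 8.38 normalized counts in DKO and 23.3 ± 1.97 in Daxx-KO (SD, n = 3). The next longest lay on chromosome 12 outside protein-coding genes and over Slc1a2, Crybg1 and Megf10. The longest lower domain ran for 52.3 kb (chr2:75591801-75644100), with no protein-coding gene under it. It held 17 sites with 27.5 ± 5.41 in DKO against 144 ± 18.0 in Daxx-KO (SD, n = 3). The next ones lay over Wwtr1, Prkcz, Sytl2 and Prkcz with Gabrd.

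Away from promoters, several sites had reads in one group only. The widest gap upward was at a site with Mrpl16 as its nearest gene (chr19:11760201-11762000), with 37.7, 81.4 and 68.2 normalized counts in DKO and 0, 0 and 0 in Daxx-KO, at least 24.3-fold higher. A site in an exon nearest to Plekha6 had 33.9, 33.2 and 26.1 against 0, 0 and 0, and those nearest to Atp8a2, Cacul1 and Zc3h12c were also at 0 in every Daxx-KO library. Downward, an intronic site of Ntm (chr9:29597101-29598150) had 0, 0 and 0 in DKO and 46.9, 21.7 and 21.1 in Daxx-KO. A pair of the 5 widest gaps downward lay in Ebf1, and one lay beside Adam6a in the Igh locus.

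H3K9me3, the mark of constitutive heterochromatin, was mapped in libraries of the same genotypes and time, and its listed sites hardly met those of H3K27me3. Of the H3K9me3 sites, 17979 (44.8%) were higher and 9935 (24.8%) lower in DKO. Only 0.447% of the higher and 0.501% of the lower H3K27me3 sites shared at least 1 bp with a listed H3K9me3 site, beside 0.470% of all listed ones. The H3K9me3 comparison holds only sites that differed between the genotypes and is no map of all H3K9me3. The higher H3K27me3 sites met higher H3K9me3 sites in 53 cases and lower ones in 60. The lower H3K27me3 sites met higher H3K9me3 sites in 50 cases and lower ones in 11.

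Listed Pu.1 sites, from the comparison of Daxx-KO with WT at 3 w.p.i., overlapped 16.7% of the higher (95% Wilson interval 16.3 to 17.2) and 16.9% of the lower (16.4 to 17.5) H3K27me3 sites, beside 16.8% of all listed ones. That table holds only sites that changed with Daxx and is no map of all Pu.1 binding. Of the Pu.1 sites 54.1% were higher and 44.0% lower in Daxx-KO than in WT, and of the H3K27ac sites of the same time 39.2% and 58.4%. The shares of H3K27me3 sites over listed H3K27ac sites were 7.52% and 7.46%. The word GAGGAAGT, searched on both strands, was in 6.22% of the higher, 5.09% of the lower and 5.69% of all listed sites. Within bins of GC content and length the higher sites held it more often in 10 of 12 bins. In the central 300 bp alone the shares were 2.05% and 2.20%, so the order was the opposite there.

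WT values at named promoters came from the table of DKO against WT, which shares the DKO libraries and was normalized on its own. The examples below were picked after their values were seen. At Ms4a3 WT had 0, 0 and 0 normalized counts and at Ccl2 0, 0 and 0. At Fcgr1 WT had 5.25, 12.7 and 15.7 beside 72.4, 50.7 and 108 in DKO. At Cdkn2c WT had 5.25, 11.8 and 4.47 beside 57.7, 100 and 50.1 in DKO. Cabp2, Rasgrp3 and Otx2 were lower in DKO than in WT, as they were against Daxx-KO. Hoxb5 was lower in DKO than in Daxx-KO but not than in WT. At one overlapping site DKO had 196, 114 and 67.6 beside 39.4, 38.95 and 49.2 in WT, and at the other the groups overlapped.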

How the data were processed

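CUT&Tag libraries of 3 DKO and 3 Daxx-KO samples at 8 w.p.i. were used, each with a number of its own in the labels that its H3K9me3 library shares, and the labels do not say what the number stands for. The authors ran diffReps 1.55.6 on mapped reads. Per the file headers, windows measured 600 bp and advanced in steps of 50 bp, fragments were taken as 100 bp long, the test was negative binomial, and a window needed a p-value below 0.0001 to join a site. The submitters' processing notes name CASAVA 1.8.4, cutadapt 1.13, STAR 2.5.3 and bedtools, and the roles of these tools and the filters on reads are not given in the sources used here. The signal of a site is the normalized count that the authors deposited for each library. The tables also hold the authors' group means, fold changes, p-values and window statistics, none of which was used.

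Positions refer to mm10 and GENCODE M21, with promoters 1 kb on each side of a TSS. Because only sites past the authors' test are listed, no test was made across sites, and separated groups are described, not tested. An exact permutation test of 3 against 3 could give no p below 0.1. A log2 ratio used means plus 1. Folds against groups at 0 used a floor of 3 reads in each library. Members and gene lists were chosen with earlier results of these data known. Genes with a promoter call were named by the width of the gap between the groups' nearest libraries, the widest 12 in each direction, with the widest 5 distal sites, the longest 5 domains and members of the lists. Not every gene so picked is reported here. Genes described along their length, antigen receptor loci and CpG classes were chosen after the data were seen. The functions were tested on simulated data. Python 3.11.15 with numpy 2.4.6, pandas 2.3.3, scipy 1.17.1 and matplotlib 3.10.9 was used. Alternatives varied the call criterion, promoter width, scaling, low values, overlap rule and libraries.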

Additional observations from a re-analysis of the deposited data

How the results depend on the processing

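The order of some close pairs of values changed with the settings. Genes with a higher promoter site were fewer than those with a lower one, but more with promoters of 3 kb and with libraries 1.5 times apart. The Pu.1 shares changed order without DKO replicate 2 (17.03% of higher sites, 16.9% of lower) or Daxx-KO replicate 2 (16.8% and 16.5%), and the H3K27ac shares without DKO replicate 1 (7.22% and 7.74%) or Daxx-KO replicate 3 (7.42% and 7.68%). With the nearest libraries at least 1.5 times apart, 17598 sites were higher and 9040 lower, the promoter shares were 3.52% and 5.42%, and 567 and 490 genes had a higher or lower promoter site. With promoters of 3 kb on each side the shares were 10.02% and 13.97%, with 2284 and 1952 genes, and with 250 bp they were 1.80% and 4.77%, with 521 genes higher. Scaling by mean reads gave a promoter share of 3.34% for higher sites and a Pu.1 overlap of 15.7%. With a CpG ratio of at least 0.75, an alternative chosen after the data were seen, 1.45% of higher and 15.4% of lower promoter sites were CpG-rich.

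An overlap of at least 50% of the shorter site gave 35 higher H3K27me3 sites that met a higher H3K9me3 site. The Pu.1 shares were then 11.1% and 11.5%, and the H3K27ac shares 5.10% and 5.08%. Within 1 kb there were 110, 123, 99 and 35 H3K27me3 sites that met H3K9me3 sites, in the order given above. The Pu.1 shares were then 31.01% and 31.6% and the H3K27ac shares 14.6% and 14.3%. Only sites of 600 to 1500 bp held the motif in 5.58% of the higher cases.

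Leaving out each library in turn gave promoter shares of 3.93% to 4.28% for higher and 7.40% to 8.73% for lower sites. The Pu.1 overlap ranged from 16.02% to 17.03% and from 16.5% to 17.9%, the H3K27ac overlap of higher sites from 7.22% to 7.58%, and the CpG-rich share from 4.21% to 5.98% and from 28.7% to 32.9%. Without both libraries of file index above 30, also chosen after the data were seen, the promoter share of higher sites was 4.28%, and Foxo1 had 15 higher sites. The cause of these differences was not tested. No paired analysis was possible because the replicate numbers in the labels link no samples across genotypes and no test was made across sites. Low read counts per window limit what a single site shows.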
